A study of Mus musculus with 9 samples.

Results

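The transcripts described here are 10 genes that move calcium across the membranes of the cell: the endoplasmic reticulum calcium sensors Stim1 and Stim2, the plasma membrane channels Orai1, Orai2 and Orai3, the pumps Atp2a2, Atp2b1 and Atp2c1, and the inositol trisphosphate receptors Itpr1 and Itpr3. They were selected by gene symbol, and all 10 were found among the 15552 genes of the count table and among the 11373 genes with enough counts to be tested. Each was followed in MyC-CaP cells, a mouse prostate cancer line from a MYC-driven tumor, at 0, 12 and 24 h of treatment with 15 ng/mL recombinant NRG1, which binds the receptor HER3. The cells had been kept for 6 to 12 h in medium without serum and without calcium before NRG1 was added, and this holds for all 3 time points, which have 3 biological replicates each. The labels call the 0 h libraries NRG1-treated as well, and they are the reference here. No libraries of cells given buffer alone for 12 or 24 h were analysed here. Time with NRG1 and time in calcium-free medium therefore cannot be told apart in any of the comparisons below. The wells were plated in triplicate from 1 cell line, and nothing states that they came from separate passages, so that p-values measure the spread between these wells.

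Calcium is stored in the endoplasmic reticulum at a far higher level than in the cytosol. Receptors that activate phospholipase C raise inositol trisphosphate, which opens the ITPR channels and lets the stored calcium out. When the store empties, STIM proteins in its membrane change shape and open ORAI channels at the cell surface, a route known as store-operated calcium entry, which needs calcium outside the cell. SERCA pumps such as the product of Atp2a2 return calcium to the store, the Golgi pump from Atp2c1 loads the secretory pathway, and the plasma membrane pump from Atp2b1 exports calcium from the cell. In prostate cancer cells these routes have been studied for their part in migration and survival.

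The libraries held 28467089 to 39239760 counts, and the 10 genes together took 0.138% to 0.154% of them. Replicates differed by more than sampling noise in every pair, with a chi-square per degree of freedom of 3.4 to 10.3, and the largest values, 10.2 and 10.3, were those of the pairs that held 12 h replicate 3, so values without that library are given where they change a call. Mitochondrial genes took 1.41% to 1.5% of counts at 0 h, 1.12% to 1.18% at 12 h and 1.21% to 1.36% at 24 h, a shift whose part in the results was not tested. Of the markers of prostate luminal cells, Foxa1 was at 274 to 297 CPM, which are counts scaled to library size. Hoxb13 and Krt8 were also present, Krt8 at 17.3 to 26.2 CPM. Krt18 was at only 0.203 to 0.491 CPM, and Epcam had at most 3 counts and Cdh1 at most 4 counts in any library. Markers of other cell types summed to at most 0.421 CPM for basal epithelium, 0.515 CPM for stroma, 0.255 CPM for endothelium, 1.05 CPM for leukocytes and 0.150 CPM for neuroendocrine cells. Less RNA per cell and fewer cells of a kind cannot be told apart in such bulk libraries.

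To set levels of different genes side by side, CPM were divided by the length of all exons of the gene in kilobases (kb). Atp2a2 led at 0 h with 103 ± 1.23 CPM per kb (SD, n = 3), which is above 96.5% of all genes tested. Itpr3 followed with 28.4 ± 1.52 and Stim1 with 20.4 ± 0.957 CPM per kb. A middle group held Orai3 with 12.0 ± 1.03, Atp2c1 with 10.6 ± 0.161, Itpr1 with 8.42 ± 0.210, Stim2 with 7.93 ± 0.173 and Atp2b1 with 5.48 ± 0.378 CPM per kb. Orai1 had 2.08 ± 0.471 and Orai2 0.858 ± 0.0534 CPM per kb, and Orai2 stood above only 14.3% of all genes tested. Of the neighbours in this order, Orai3 and Atp2c1 differed by less than 2 SD of the more variable gene, Itpr1 and Stim2 as well as Orai1 and Orai2 by less than 3 SD, and the others by more. The choice of length matters for this order: with the longest transcript in place of all exons, Stim1 reached 48.6, Atp2c1 18.2, Itpr1 15.6, Atp2b1 11.7 and Orai2 1.31 CPM per kb at 0 h, while Atp2a2 stayed the highest at 110 and Orai2 the lowest.

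**Figure D1:**
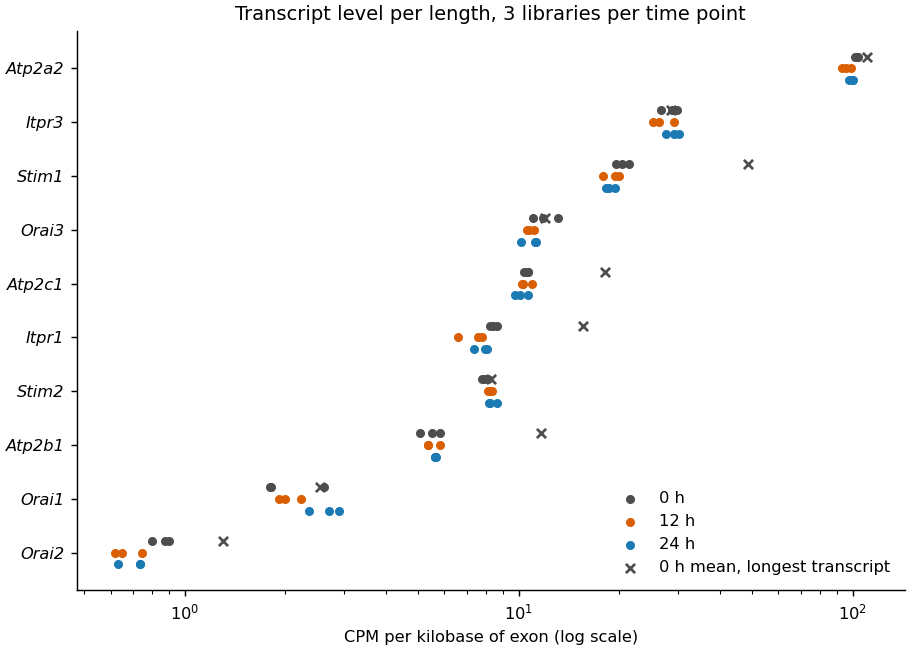
CPM per kilobase of exon on a log axis for each of the 10 genes (rows, ordered by the 0 h mean), with 1 point per library at 0, 12 and 24 h. Crosses give the 0 h mean when the longest transcript sets the length. Atp2a2 lies near 100, Orai1 near 2 and Orai2 below 1 CPM per kb at all 3 time points.

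The 3 comparisons asked which of these genes had another transcript level after 12 h, after 24 h, and between the later times. A gene passed when its edgeR quasi-likelihood p, adjusted by Benjamini-Hochberg over all 11373 genes, was at most 0.05, and was called when its fold change was also at least 1.5. Below, the call of a gene is whether it passed, and a gene was called only past both limits. At 12 h, 3 of the 10 genes passed, Itpr1, Atp2a2 and Orai2, and all 3 fell. This is read against 25.5% of all genes tested that passed at 12 h, 13.6% higher and 11.9% lower. None of the 10 was called at 12 h, where 2.29% of all genes were, and DESeq2 called none either, while 4 of the 10 had an unadjusted edgeR p under 0.05. The share of all genes with such an unadjusted p was not computed, and it cannot be below the 25.5% that passed. The log2 fold change was below 0 for 8 of the 10 at 12 h, with a median of -0.09, and the median over all genes tested was -0.0028. With all genes in 10 bins of transcript length, the median was -0.06 in the longest bin and -0.03 in the next. Itpr1, Itpr3 and Atp2b1 lie in the longest bin, and Atp2a2 and Atp2c1 in the next. For 3 of the 10 the 12 h values did not overlap those at 0 h, against 38.4% of all genes.

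At 24 h against 0 h, none of the 10 passed in edgeR or DESeq2, and none was called in either. Of all genes tested, 17.4% passed at 24 h, 9.67% higher and 7.76% lower, and 2.27% were called. An unadjusted edgeR p under 0.05 was reached by 4 of the 10, Stim1, Orai1, Orai2 and Itpr1. The share of all genes that reached it was not computed, and it cannot be below the 17.4% that passed. Values at 24 h did not overlap those at 0 h for 5 of the 10, against 35.5% of all genes, namely Stim1, Stim2, Orai2, Atp2a2 and Itpr1. Between 24 and 12 h none of the 10 passed or was called in edgeR or DESeq2, 1 of them, Orai1, had an unadjusted edgeR p under 0.05, and the values of 1 gene, again Orai1, did not overlap. The matching shares of all genes were 5.03% passed, 1.97% higher and 3.06% lower, 0.29% called, and 25% not overlapping. No such share was computed for the unadjusted p. When the 3 time points were tested at once, 1 of the 10, Itpr1, passed (edgeR adjusted p = 0.0228), against 27.4% of all genes. The 12 h and 24 h comparisons share the 0 h libraries, so their values are given side by side and not as separate evidence.

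**Figure D2:**
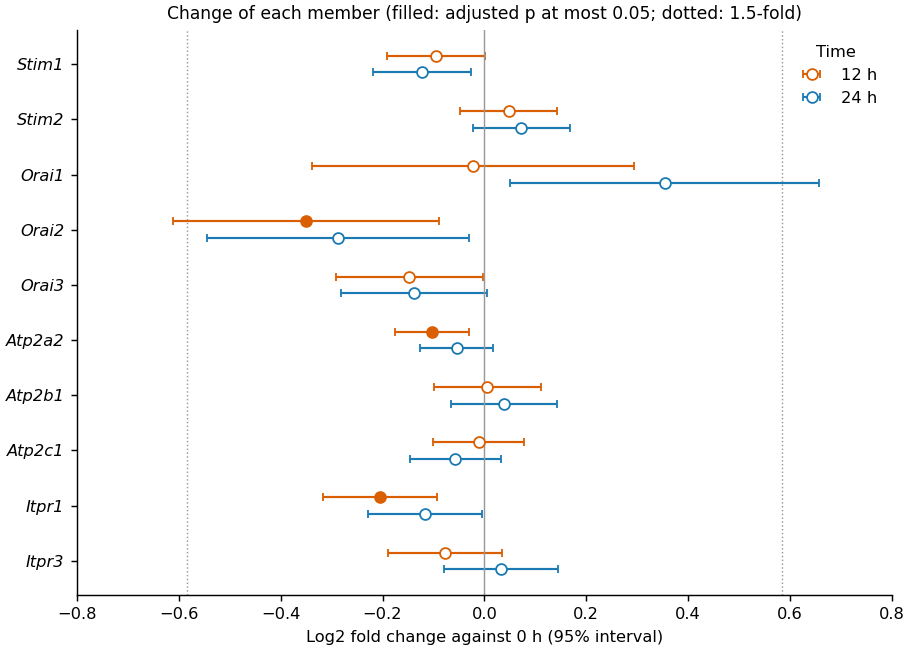
Log2 fold change against 0 h with its 95% interval for each gene at 12 h (orange) and 24 h (blue). Filled points passed an edgeR adjusted p of 0.05, and dotted lines mark a fold change of 1.5. Only Orai2, Atp2a2 and Itpr1 at 12 h are filled, and no point reaches a dotted line.

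Itpr1 encodes the type 1 inositol trisphosphate receptor, a channel that releases calcium from the endoplasmic reticulum (chr6:108213096-108551109, plus strand, GRCm38). It measured 154, 158 and 151 CPM in the 0 h libraries, 138, 121 and 142 CPM at 12 h, and 134, 147 and 145 CPM at 24 h. Every library at 12 and 24 h lay below every library at 0 h, and 12 h replicate 2 was the lowest of the 9. At 12 h Itpr1 fell by 0.21 on the log2 scale (edgeR adjusted p = 0.00903, SE 0.053), which is a change of -13.3% with a 95% interval from -19.7% to -6.25%. At 24 h the log2 fold change was -0.12 (SE 0.053), which missed the threshold with an edgeR adjusted p of 0.148. The difference between 24 and 12 h was 0.09 (edgeR adjusted p = 0.376, SE 0.053).

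The 12 h fall of Itpr1 passed whichever of the 9 libraries was left out, with log2 fold changes from -0.14, without 12 h replicate 2, to -0.25, without 12 h replicate 3. Its transcript is among the longest tested, and at 12 h long transcripts were lower as a group: with genes in 10 equal bins of transcript length, the median log2 fold change was -0.06 in the bin of 6755 bases or more and 0.02 in the shortest bin. With that trend on length removed, a choice made after seeing the data, the fall of Itpr1 was smaller (-0.12, edgeR adjusted p = 0.0189). Itpr3 and Atp2b1 lie in the same bin of longest transcripts.

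Itpr3 encodes the type 3 receptor (chr17:27057304-27122223, plus strand), and 2.58% of its exonic bases lie under Itpr3os on the other strand. Its values were 260, 268 and 241 CPM at 0 h, 237, 228 and 264 CPM at 12 h, and 250.1, 272 and 264 CPM at 24 h. The groups overlapped at every time, since 12 h replicate 3 lay with the 0 h libraries while the other 2 libraries at 12 h were lower. The log2 fold change was -0.08 (edgeR adjusted p = 0.314, SE 0.053) at 12 h and 0.03 (edgeR adjusted p = 0.732, SE 0.053) at 24 h. Without 12 h replicate 3, the library that stood furthest from its group, Itpr3 passed at 12 h (-0.14, edgeR adjusted p = 0.0308) and between 24 and 12 h (0.17, edgeR adjusted p = 0.0252). It passed in none of the other 8 fits without 1 library. The 12 h value was -0.04 without 12 h replicate 2 (edgeR adjusted p = 0.702) or without 0 h replicate 2 (edgeR adjusted p = 0.659), and -0.12 without 0 h replicate 3 (edgeR adjusted p = 0.153). Per kb of exon, Itpr1 made up 22.9% ± 0.554 of the summed ITPR transcripts at 0 h, 21.3% ± 0.872 at 12 h and 21.1% ± 0.208 at 24 h, as mean ± SD of 3 libraries, and Itpr3 nearly all the rest. Itpr2 held at most 0.0324% in any library. The highest Itpr1 share at 24 h, 21.3%, lay below the lowest at 0 h, 22.5%. With the longest transcript as the length, the Itpr1 shares were higher, 35.4%, 33.4% and 33.1% at the 3 times, and in the same order.

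Stim1 encodes the main sensor of the calcium store, which opens ORAI channels when the store is empty (chr7:102267806-102437319, plus strand). It measured 222, 211 and 203 CPM at 0 h, 207, 201 and 186 CPM at 12 h, and 194, 189 and 201 CPM at 24 h. The 24 h values lay below all 0 h values, and the 12 h values overlapped them. Log2 fold changes were -0.10 (edgeR adjusted p = 0.138, SE 0.046) at 12 h and -0.12 (edgeR adjusted p = 0.0727, SE 0.046) at 24 h. The 24 h value passed when 12 h replicate 3 (-0.12, edgeR adjusted p = 0.0257) or 0 h replicate 3 (-0.16, edgeR adjusted p = 0.0490) was left out, and in none of the other 7 such fits. Without 0 h replicate 1 it was -0.08 (edgeR adjusted p = 0.271). The 12 h value passed in none of the 9, and was -0.05 without 12 h replicate 3 (edgeR adjusted p = 0.417) and -0.06 without 0 h replicate 1 (edgeR adjusted p = 0.388).

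Stim2 encodes a second sensor that responds to smaller losses from the store and is known for holding basal calcium (chr5:53998499-54121057, plus strand). Its values were 39.9, 40.5 and 41.6 CPM at 0 h, 41.9, 41.6 and 42.7 CPM at 12 h, and 42.2, 41.9 and 44.2 CPM at 24 h. It was the steadiest of the 10, with a highest library 1.11 times its lowest, and the 24 h values lay just above those at 0 h. The log2 fold changes of 0.05 (edgeR adjusted p = 0.483, SE 0.045) at 12 h and 0.07 (edgeR adjusted p = 0.302, SE 0.045) at 24 h did not pass, and the 95% interval at 24 h ran from -0.02 to 0.17.

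Stim1 counts were 4.86 to 5.57 times those of Stim2 at 0 h, 4.36 to 4.95 times at 12 h and 4.51 to 4.58 times at 24 h. Per kb of exon, the Stim1 share of the pair was 72.0% ± 1.37 at 0 h, 70.0% ± 1.43 at 12 h and 69.2% ± 0.164 at 24 h (mean ± SD of 3 libraries), and Stim2 was the rest. The highest Stim1 share at 24 h, 69.4%, was below the lowest at 0 h, 70.6%. With the longest transcript as the length, Stim1 held 85.5%, 84.2% and 83.7% at the 3 times and Stim2 14.5%, 15.8% and 16.3%. With 3 libraries against 3 an exact permutation test cannot go below p = 0.1, so the shares of all families are given as a description. How often shares within other gene families separate between time points was not tested.

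The 3 ORAI genes encode the pore of store-operated entry. Among the 10, no other family had log2 fold changes at 24 h of opposite signs with unadjusted intervals that left out 0. Orai1 and Orai2 did, but neither passed at 24 h (edgeR adjusted p = 0.103 and 0.118), and the Orai1 values at 0 and 24 h overlapped. The contrast was picked from these same values. The promoter windows of the 3 ORAI genes span 250 bases before to 50 bases after the start of transcription, on the strand of the gene. These windows were taken from RefSeq (GRCm38.p6) to show what the 3 genes carry at their starts. They lie at chr5:123014824-123015123 on the plus strand for Orai1, chr5:136170607-136170906 on the minus strand for Orai2 and chr7:127769565-127769864 on the plus strand for Orai3. Capitals mark the letters CCAAT, the core of the CCAAT box, and GGGCGG, the core of the GC box, each on either strand, so that they also appear as ATTGG and CCGCCC.
Orai1: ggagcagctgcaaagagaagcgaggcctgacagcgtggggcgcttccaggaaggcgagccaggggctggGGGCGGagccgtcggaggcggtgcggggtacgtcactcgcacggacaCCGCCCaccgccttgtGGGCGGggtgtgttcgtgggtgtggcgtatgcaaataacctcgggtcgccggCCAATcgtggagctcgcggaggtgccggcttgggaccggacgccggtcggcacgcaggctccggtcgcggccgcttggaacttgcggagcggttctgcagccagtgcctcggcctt
Orai2: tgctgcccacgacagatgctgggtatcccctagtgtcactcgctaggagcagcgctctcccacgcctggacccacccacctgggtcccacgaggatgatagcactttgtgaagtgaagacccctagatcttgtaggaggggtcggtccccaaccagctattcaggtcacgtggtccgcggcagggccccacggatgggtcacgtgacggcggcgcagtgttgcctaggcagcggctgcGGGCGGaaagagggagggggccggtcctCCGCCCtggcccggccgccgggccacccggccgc
Orai3: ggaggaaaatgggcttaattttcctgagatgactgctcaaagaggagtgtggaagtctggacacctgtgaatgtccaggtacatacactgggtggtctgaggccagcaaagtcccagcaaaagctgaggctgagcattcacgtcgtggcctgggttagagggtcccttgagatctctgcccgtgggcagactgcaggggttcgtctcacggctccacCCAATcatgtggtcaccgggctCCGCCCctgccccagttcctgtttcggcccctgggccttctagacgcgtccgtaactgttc

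Orai1 had 1 CCAAT and 3 GGGCGG in this window, Orai2 had no CCAAT and 2 GGGCGG, and Orai3 had 1 of each. Of the 32851 promoter windows of the same length, 37.4% held CCAAT and 35.7% held GGGCGG, so either is common. RefSeq windows were found for 8 of the 10 genes, and Atp2a2 and Itpr1 are named only. Those 8 genes have 10 windows and are counted here by gene, whereas the shares of all promoters are by window. GGGCGG was found in all 8 genes, though 1 Atp2c1 window had 0, and CCAAT in 3, Stim2, Orai1 and Orai3. The endoplasmic reticulum stress element, CCAAT and CCACG with 9 bases between them on either strand, was in 0 of the 8 and in 0.119% of all windows. These letters describe the windows and do not show that a factor is bound there.

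Orai1 encodes the best known ORAI pore (chr5:123015074-123030456, plus strand). It measured 4.15, 4.13 and 6.01 CPM at 0 h, 4.41, 5.11 and 4.6 CPM at 12 h, and 5.40, 6.19 and 6.65 CPM at 24 h. The 24 h values were above all 12 h values, but 0 h replicate 3 lay among the 24 h libraries while the other 2 libraries at 0 h were the lowest of the 9. The log2 fold change was -0.02 (edgeR adjusted p = 0.935, SE 0.149) at 12 h, 0.35 (edgeR adjusted p = 0.103, SE 0.144) at 24 h, and 0.38 (edgeR adjusted p = 0.148, SE 0.144) between 24 and 12 h. None of these passed, and the 95% interval at 24 h ran from 0.05 to 0.66. The counts behind it were low, 117 to 261 per library. Without 0 h replicate 3 the 24 h value was 0.56 and passed (edgeR adjusted p = 0.0118), whereas without 0 h replicate 2 it was 0.25 (edgeR adjusted p = 0.333).

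Orai2 encodes a paralogous pore that can join ORAI1 in mixed channels (chr5:136147459-136170713, minus strand). Its values were 5.32, 5.47 and 4.85 CPM at 0 h, 4.53, 3.96 and 3.75 CPM at 12 h, and 3.83, 4.46 and 4.48 CPM at 24 h. All 6 later libraries lay below the 3 at 0 h. Orai2 fell by 0.35 on the log2 scale at 12 h (edgeR adjusted p = 0.0464, SE 0.123), a change of -21.6% with a 95% interval from -34.5% to -6.04%. At 24 h the log2 fold change was -0.29 (edgeR adjusted p = 0.118, SE 0.122). The 12 h call rests on few counts, 115 to 208 per library, and on the exact set of libraries: it was kept in 3 of 9 fits that left out 1 library and lost in the others, with adjusted p up to 0.139 without 0 h replicate 2, and DESeq2 gave 0.0903. The libraries whose removal ended it were 0 h replicates 1 and 2, 12 h replicates 2 and 3, and 24 h replicates 2 and 3, and the log2 fold change stayed between -0.44 and -0.29.

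Orai3 encodes the ORAI form found in mammals alone (chr7:127769815-127775150, plus strand). It measured 28.1, 23.7 and 25.4 CPM at 0 h, 23.8, 23.0 and 22.7 CPM at 12 h, and 24.0, 24.2 and 21.8 CPM at 24 h. Only 0 h replicates 1 and 3 stood above all later libraries. Its log2 fold changes, -0.15 (edgeR adjusted p = 0.127, SE 0.068) at 12 h and -0.14 (edgeR adjusted p = 0.183, SE 0.068) at 24 h, did not pass. Without 0 h replicate 1 they were -0.08 at 12 h and -0.07 at 24 h, without 24 h replicate 3 the 24 h value was -0.09, and no fit without 1 library passed. Per kb of exon, Orai3 made up 80.3% ± 2.71 of ORAI transcripts at 0 h, 79.9% ± 0.923 at 12 h and 76.5% ± 2.65 at 24 h. Orai1 made up 13.9% ± 2.95, 15.2% ± 1.2 and 18.6% ± 2.21 at the same times (SD, n = 3), and its ranges at 0 and 24 h, 11.4% to 17.2% and 16.6% to 21.0%, overlapped. The ratio of Orai1 to Orai2 counts was 0.780, 0.755 and 1.24 at 0 h, 0.975, 1.29 and 1.23 at 12 h, and 1.41, 1.39 and 1.48 at 24 h. Every library at 24 h was above every library at 0 and 12 h in this ratio. The ratio of Orai1 to Orai3 counts did not separate so, with 0.237 in 0 h replicate 3 and 0.225 in 24 h replicate 1. How often ratios of other gene pairs separate was not tested.

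**Figure D3:**
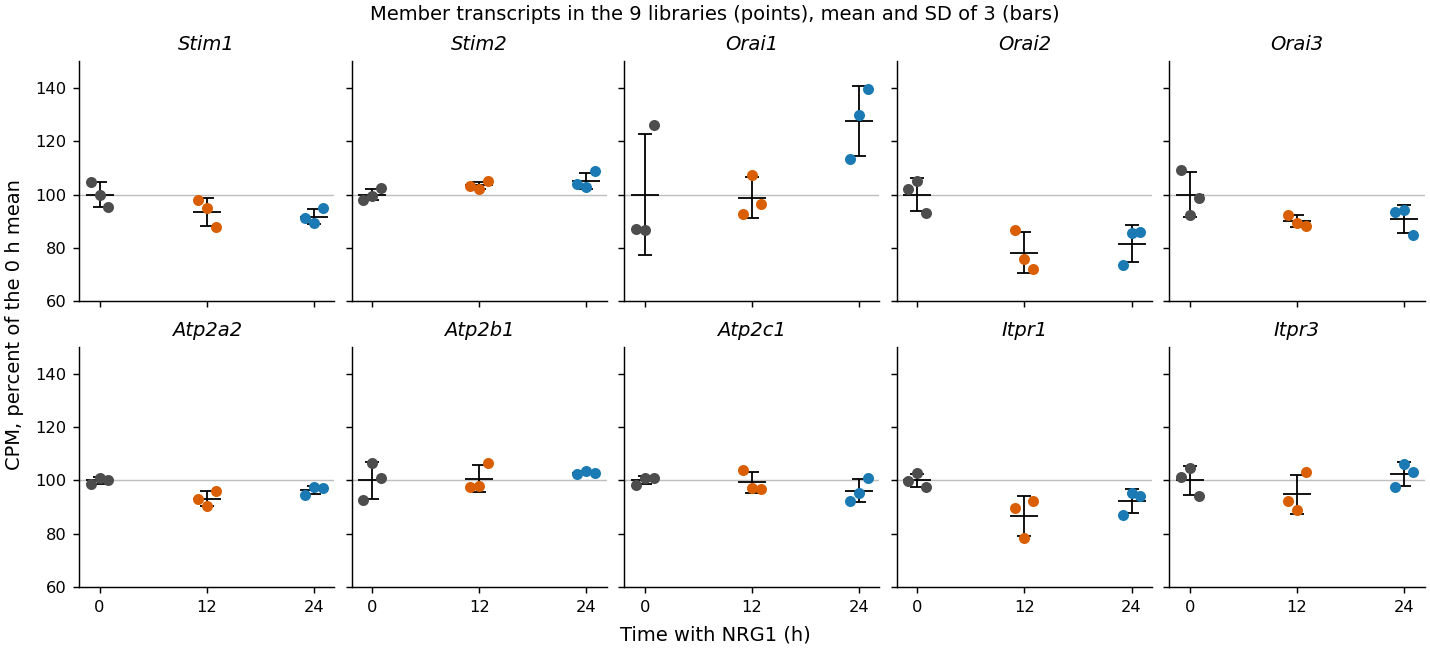
CPM of each gene in each of the 9 libraries as a percentage of its 0 h mean, against the time with NRG1 in hours. Points are libraries, and bars give the mean and SD of 3. Most points lie between 85% and 110%. The widest ranges are those of Orai1, from 86.7% to 140%, and Orai2, from 71.9% to 105%, and Itpr1 reaches 78.3% at 12 h.

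Atp2a2 encodes SERCA2, the pump that refills the endoplasmic reticulum (chr5:122453513-122502225, minus strand). Its values were 619, 633 and 628 CPM at 0 h, 583, 567 and 602 CPM at 12 h, and 593, 610.0 and 608 CPM at 24 h. All later libraries lay below those at 0 h, by little. Atp2a2 fell by 0.10 on the log2 scale at 12 h (edgeR adjusted p = 0.0344, SE 0.034), a change of -6.88% with a 95% interval from -11.4% to -2.13%. At 24 h it was -0.05 (edgeR adjusted p = 0.310, SE 0.034). The 12 h call was kept in 2 of 9 fits that left out 1 library, those without 0 h replicate 1 or without 12 h replicate 3. It was lost without any of the other 7, with adjusted p from 0.0503 to 0.127, the highest without 12 h replicate 2, and also with the trend on length removed (-0.08, edgeR adjusted p = 0.0549). The related pumps Atp2a1 and Atp2a3 were minor per kb of exon, since Atp2a2 made up 97.9% to 99.0% of the SERCA transcripts in every library.

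Atp2b1 encodes PMCA1, the housekeeping calcium pump of the plasma membrane (chr10:98914406-99026143, plus strand). It measured 77.3, 88.8 and 84.0 CPM at 0 h, 81.3, 81.5 and 88.6 CPM at 12 h, and 85.2, 86.1 and 85.7 CPM at 24 h. The 3 groups overlapped, and log2 fold changes were 0.0058 (edgeR adjusted p = 0.951, SE 0.050) at 12 h, where total-count scaling turned the sign (-0.0060), and 0.04 (edgeR adjusted p = 0.658, SE 0.050) at 24 h. The 95% interval at 12 h ran from -0.10 to 0.11. Its paralogue Atp2b4, the PMCA4 pump, measured 180, 179 and 169 CPM at 0 h, 129, 126 and 144 CPM at 12 h, and 130.3, 144 and 142 CPM at 24 h, and fell at 12 h (-0.40, edgeR adjusted p = 2.34e-05, SE 0.050) and at 24 h (-0.34, edgeR adjusted p = 0.000128, SE 0.050). Both falls passed whichever library was left out. The longest Atp2b4 transcript, of 11725 bases, is in the bin of longest transcripts, which was lower as a group at 12 h. The 12 h fall of Atp2b4 also passed in 7 other alternatives, and its weakest value over these and the 9 fits without 1 library was -0.30. Atp2b1 made up 27.6% ± 1.67 of the summed transcripts of the pair per kb of exon at 0 h, 33.7% ± 0.496 at 12 h and 33.3% ± 1.08 at 24 h, as mean ± SD of 3 libraries, and its ranges at 12 and 24 h lay above that at 0 h. With the length of the longest transcript the shares were 43.8%, 50.9% and 50.4%, so which of the pair is the larger depends on the length used, while the ranges at 12 and 24 h again lay above that at 0 h. Atp2b2 and Atp2b3 were not analysed here.

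Atp2c1 encodes SPCA1, the pump that supplies the Golgi with calcium and manganese (chr9:105403539-105527319, minus strand). Aste1 on the other strand covers 18.9% of its exonic bases, and whether reads were counted by strand was not stated. Its values were 101, 104 and 104 CPM at 0 h, 107, 99.8 and 99.4 CPM at 12 h, and 94.9, 97.7 and 104 CPM at 24 h. The groups overlapped at each time. The log2 fold change was -0.01 (edgeR adjusted p = 0.883, SE 0.042) at 12 h, where removal of the trend on length turned the sign (0.01), and -0.06 (edgeR adjusted p = 0.410, SE 0.042) at 24 h.

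**Figure D4:**
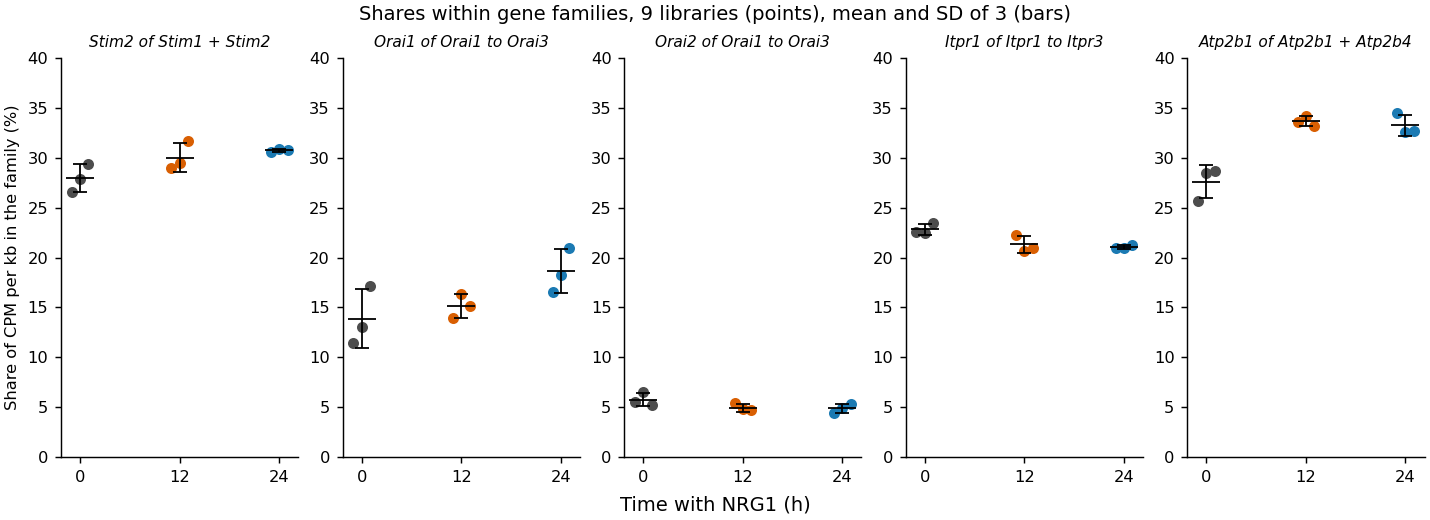
Share of a gene in the summed CPM per kb of exon of its family, in percent, against the time with NRG1 in hours, for Stim2, Orai1, Orai2, Itpr1 and Atp2b1. Points are the 9 libraries, and bars give the mean and SD of 3. The share of Atp2b1 against Atp2b4 is near 28% at 0 h and near 33% later, and that of Itpr1 moves from 22.9% to 21.1%.

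The genes whose pattern over the 9 libraries was most like that of the 3 genes that passed were found by Pearson r of log2 CPM among 8433 or 8434 genes with a mean of at least 10 CPM. For Itpr1 they were Kcnma1 (r = 0.971), which encodes a calcium-activated potassium channel, and Vps13a (r = 0.970). For Atp2a2 they were Myh10 (r = 0.991) and Myh9 (r = 0.982), which encode non-muscle myosin heavy chains, and for Orai2 Golga5 (r = 0.962) and Phkb (r = 0.961). These are descriptions over 9 libraries of 3 time points, chosen as the highest among all of those genes. Transcript length was not taken into account in them. Itpr1 lies in the bin of longest transcripts and Atp2a2 in the next, and both bins were lower as groups at 12 h. The part of length in these correlations was not tested.

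Other genes of calcium handling were taken from 8 lists of 120 genes, of which 106 were in the table and 73 were tested. At 12 h, 24 of the 73 passed (32.9%), 9 higher and 15 lower, against 25.5% of all genes, 13.6% higher and 11.9% lower. At 24 h, 12 of the 73 passed (16.4%), 4 higher and 8 lower, near the 17.4% of all genes, 9.67% higher and 7.76% lower. Between 24 and 12 h 6 passed (8.22%), 3 in each direction, against 5.03% of all genes, 1.97% higher and 3.06% lower. Their median log2 fold change was -0.03 at 12 h and -0.01 at 24 h. None of the 73 was called in edgeR against 0 h, where 31 at 12 h and 23 at 24 h had an unadjusted p under 0.05. The share of all genes with such a p was not computed, here or for the lists below. Only 1 of the 73 was called between 24 and 12 h, Slc24a5, an exchanger of intracellular membranes (1.27, edgeR adjusted p = 0.0481, SE 0.35). It had only 6 to 27 counts per library, 39.5% of its exonic bases lie under Myef2 on the other strand, and the call was lost whichever of the 9 libraries was left out, with adjusted p from 0.0527 to 0.147.

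Among 5 tested regulators of store-operated entry, 1 passed at 12 h (20%, against 25.5% of all genes) and none at 24 h in edgeR, where 1 had an unadjusted p under 0.05. Esyt2, a tether between the endoplasmic reticulum and the plasma membrane, fell at 12 h (-0.12, edgeR adjusted p = 0.0231, SE 0.038) and kept its call in 5 of 9 fits without 1 library, losing it without 0 h replicates 1 or 2 and 12 h replicates 1 or 2. Among 7 other pumps and exchangers, of which 2 passed at 12 h (28.6%, against 25.5% of all genes), the mitochondrial sodium and calcium exchanger Slc8b1 fell with Atp2b4 at 12 h (-0.33, edgeR adjusted p = 0.000610, SE 0.059), a call kept without any 1 library.

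Of 11 other release channels and modulators, 3 passed at 12 h (27.3%), close to the 25.5% of all genes. The endolysosomal channel Tpcn1 fell (-0.19, edgeR adjusted p = 0.00475, SE 0.044), as did Ahcyl2, a relative of an inhibitor of ITPR channels (-0.17, edgeR adjusted p = 0.00775, SE 0.043), both whichever library was left out. Tmbim6, a leak channel of the endoplasmic reticulum, rose (0.11, edgeR adjusted p = 0.0210, SE 0.032) and kept its call in 6 of 9 such fits, losing it without 0 h replicate 3 and 12 h replicates 1 or 3. Tpcn1 also passed at 24 h (-0.16, edgeR adjusted p = 0.0174, SE 0.044), except without 0 h replicate 1 or 24 h replicates 2 or 3. Of 7 other plasma membrane channels 2 passed at 12 h (28.6%, against 25.5% of all genes). Trpm7 (-0.19, edgeR adjusted p = 0.0110, SE 0.051) and Trpv4 (-0.16, edgeR adjusted p = 0.0296, SE 0.052) fell. The Trpm7 call was lost without 0 h replicate 2 (-0.15, edgeR adjusted p = 0.0654), and the Trpv4 call without 0 h replicates 1 or 3 and 12 h replicates 1 or 3.

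Phospholipase C makes the ligand of the ITPR channels, and 3 of 7 tested genes of its list passed at 12 h (42.9%), all lower, against 25.5% of all genes and 11.9% lower. Plcb4 fell at 12 h (-0.34, edgeR adjusted p = 9.99e-05, SE 0.050) and at 24 h (-0.24, edgeR adjusted p = 0.00258, SE 0.050). Plcg1, the form that receptor tyrosine kinases activate, measured 96.6, 101 and 92.7 CPM at 0 h and 83.4, 79.5 and 84.1 CPM at 12 h, and fell by 0.23 on the log2 scale (edgeR adjusted p = 0.00203, SE 0.048). At 24 h Plcg1 did not pass (-0.08, edgeR adjusted p = 0.281, SE 0.048). These calls of Plcb4 and Plcg1 held whichever library was left out. Plcd3 fell at 12 h (-0.13, edgeR adjusted p = 0.0284, SE 0.042), a call lost without 0 h replicate 1 and 12 h replicates 2 or 3.

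Of 8 tested genes of mitochondrial uptake, 3 passed at 12 h (37.5%, against 25.5% of all genes) and none at 24 h in edgeR, where 1 had an unadjusted p under 0.05. Vdac1, the channel of the outer mitochondrial membrane, measured 775, 765 and 735 CPM at 0 h, 906, 853 and 898 CPM at 12 h, and 736, 742 and 742 CPM at 24 h. It rose at 12 h (0.22, edgeR adjusted p = 0.000189, SE 0.035) and fell between 12 and 24 h (-0.26, edgeR adjusted p = 0.000441, SE 0.035), both whichever library was left out. Mcub, a subunit that lowers uptake through the uniporter, was higher at 12 h (0.28, edgeR adjusted p = 0.0438, SE 0.099), and the uniporter regulator Mcur1 lower (-0.19, edgeR adjusted p = 0.0385, SE 0.064). Each of these calls was kept in only 3 of 9 fits without 1 library, that of Mcub being lost without any 12 h library, 0 h replicates 2 or 3 or 24 h replicate 2, and that of Mcur1 without 0 h replicates 1 or 3, 12 h replicates 1 or 3 or 24 h replicates 2 or 3.

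Buffers of the endoplasmic reticulum and Golgi hold the stored calcium, and 5 of 11 tested passed at 24 h (45.5%), all lower, against 17.4% of all genes and 7.76% lower. Canx, the lectin chaperone calnexin, measured 1648, 1676 and 1627 CPM at 0 h and 1474, 1496 and 1503 CPM at 24 h (-0.15, edgeR adjusted p = 0.00412, SE 0.032). Nucb2 measured 52.3 ± 3.64 CPM at 0 h and 44.2 ± 1.08 CPM at 24 h, as mean ± SD of 3 libraries (-0.24, edgeR adjusted p = 0.00584, SE 0.055), and both calls held whichever library was left out. The other 3, named after their values were seen, were Nucb1 (-0.19, edgeR adjusted p = 0.0312), Hsp90b1 (-0.14, edgeR adjusted p = 0.0138) and Sdf4 (-0.13, edgeR adjusted p = 0.0359). Of these, Hsp90b1 shares 10.3% of its exonic bases with an opposite-strand gene and 5.38% with genes on its own strand. Whether the calls of these 3 hold with 1 library left out is not given here. At 12 h 2 of the 11 passed, Nucb1 lower (-0.20, edgeR adjusted p = 0.0197) and Calu, a secretory pathway buffer, higher (0.13, edgeR adjusted p = 0.00588, SE 0.031).

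Of 17 tested genes of calmodulin, its kinases, calcineurin and NFAT, 8 passed at 12 h (47.1%, against 25.5% of all genes), 5 higher and 3 lower, and 4 at 24 h (23.5%, against 17.4% of all genes), all higher. Of all genes, 13.6% passed higher and 11.9% lower at 12 h, and 9.67% passed higher at 24 h. Calm2, which encodes calmodulin, measured 505, 517 and 541 CPM at 0 h, 609, 604 and 599 CPM at 12 h, and 631, 612 and 624 CPM at 24 h. It rose at 12 h (0.21, edgeR adjusted p = 0.000252, SE 0.035) and at 24 h (0.26, edgeR adjusted p = 5.81e-05, SE 0.035). Both calls of Calm2 held whichever library was left out, but reads of near-identical coding regions could be split between the calmodulin genes. Ppp3cc, which encodes a catalytic subunit of calcineurin, rose at 12 h (0.34, edgeR adjusted p = 0.0138, SE 0.093) and at 24 h (0.40, edgeR adjusted p = 0.00576, SE 0.092), and 3.05% of its exonic bases lie under Gm49417 on the other strand. Its 12 h call was lost without 12 h replicate 2 (0.26, edgeR adjusted p = 0.0766), and its 24 h call held whichever library was left out. Nfat5, a transcription factor of the osmotic stress response, fell at 12 h (-0.36, edgeR adjusted p = 0.00108, SE 0.070) whichever library was left out. With 13443 bases, its longest transcript is in the bin of longest transcripts, which was lower as a group at 12 h. Nfat5 passed at 12 h in the 9 fits without 1 library and in 7 other alternatives, with a value as weak as -0.24. It was higher at 24 than at 12 h (0.25, edgeR adjusted p = 0.0475, SE 0.070), a call kept in 2 of 9 fits, those without 0 h replicate 1 or 12 h replicate 3.

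**Figure D5:**
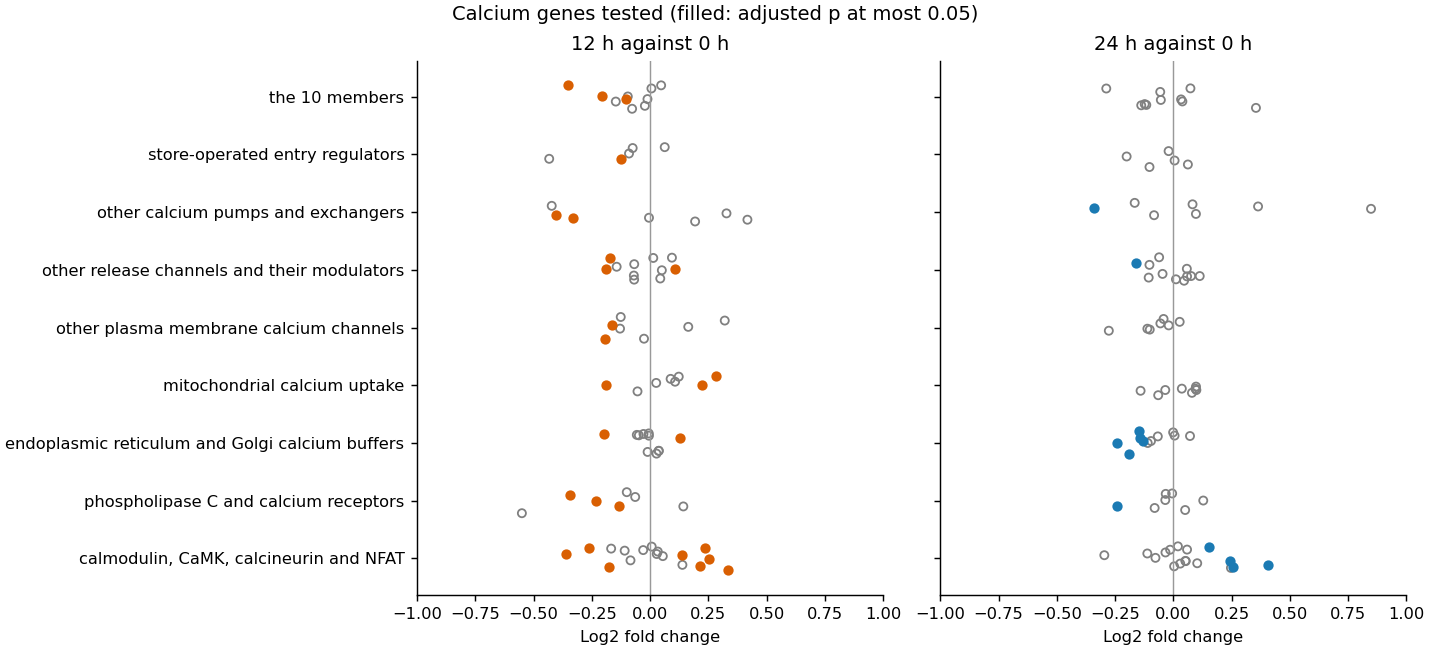
Log2 fold change at 12 h (left) and 24 h (right) against 0 h of the 10 genes and of the 73 other calcium genes tested, 1 point per gene and 1 row per list. Filled points passed an edgeR adjusted p of 0.05. All 5 filled points of the endoplasmic reticulum and Golgi buffers at 24 h lie below 0, and all 4 of the calmodulin list lie above 0. Of all genes tested, 9.67% passed higher and 7.76% lower at 24 h.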

How the data were processed

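RNA from MyC-CaP cells was sequenced as paired-end mRNA libraries, 3 per time point. The authors trimmed adaptors with Cutadapt, aligned to GRCm38.p6 with STAR, and used featureCounts with GENCODE gene models. They deposited the resulting raw counts, not normalized, for 15552 protein-coding genes. Strand setting and multiply mapped reads were not described in the sources used here.

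Counts were filtered with filterByExpr, which kept 11373 genes, scaled by TMM in edgeR 4.0.16 (R 4.3.3), and all 9 libraries were fitted with glmQLFit. The 3 pairs of time points were tested with glmQLFTest, two-sided, with Benjamini-Hochberg adjustment over all genes, and SE and 95% intervals came from the same fit. CPM used TMM-scaled library sizes, and log2 CPM a prior count of 2. DESeq2 1.42.0 was an alternative, beside other scalings, no filter, a replicate block, only the time points compared, and each library left out. Exon and transcript lengths and overlaps came from GENCODE vM21 (GRCm38), which matched 15541 of 15552 gene identifiers. The fits were also run on simulated counts with known changes. Those counts were drawn independently for each library, without a library that stood apart as 12 h replicate 3 did, so they do not bear on the calls given here.

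All 10 genes were named, with every other calcium gene that was called, up to 3 per list with the smallest adjusted p against 0 h among those that passed, and the 2 genes most alike each of the 10 that passed against 0 h. The 10 genes, the lists and the tests were chosen with earlier results of these data known. Krt5, Atp2b2 and Atp2b3 were not analysed here, and a few listed genes, which are not reported, were left out of the list counts.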

Additional observations from a re-analysis of the deposited data

How the results depend on the processing

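The count of 3 of the 10 genes that passed at 12 h became 1 without the filter on low counts and 1 with only the 2 time points in the fit, Itpr1 each time, and ranged from 1 to 3 when 1 library was left out. At 24 h against 0 h the count of 0 became 2 without the filter (Stim1 and Orai1) and 2 with only the 2 time points (Stim1 and Itpr1), with 0 to 2 on leaving out 1 library, and between 24 and 12 h it was 0 to 1. Across the 3 time points, the count of 1 became 2 with total counts, without the filter and in DESeq2, and 0 to 3 on leaving out 1 library. Of the other calcium genes, 24, 12 and 6 passed at 12 h, at 24 h and between 24 and 12 h, which became 15 to 24, 7 to 16 and 1 to 6 when 1 library was left out. They were 15 at 12 h without 0 h replicate 3 or 12 h replicate 1, 7 at 24 h without 24 h replicate 2, and 1 or 2 between 24 and 12 h without 12 h replicate 1 or any 24 h library. With only the 2 time points compared, 12 h calls were also lost for Tmbim6 (edgeR adjusted p = 0.0608), Mcur1 (0.0685) and Plcd3 (0.0603). Between 24 and 12 h the calls of Nfat5 (0.0666) and Slc24a5 (0.0682) were lost so. With the trend on length removed, a choice made after seeing the data, the 12 h call of Mcub was lost (edgeR adjusted p = 0.0515). In the main fit, the 9 fits without 1 library and the 7 other alternatives, 0 of the 10 genes were called. Itpr1 passed at 12 h in each of these fits. Why the counts move was not tested.

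Signs turned only for changes near 0 that had not passed: Atp2b1 at 12 h with total counts (-0.0060), and with the trend on transcript length removed, a choice made after seeing the data, Atp2c1 at 12 h (0.014) and Atp2b4 between 24 and 12 h (-0.0058). When 1 library was left out, log2 fold changes ranged at 12 h from -0.13 to 0.18 for Orai1, -0.046 to 0.054 for Atp2b1, -0.049 to 0.0065 for Atp2c1 and -0.051 to 0.047 for Nucb2. At 24 h they ranged from -0.0079 to 0.087 for Atp2b1, -0.0091 to 0.067 for Itpr3, -0.042 to 0.0038 for Esyt2, -0.0020 to 0.20 for Mcub and -0.065 to 0.011 for Plcd3. Between 24 and 12 h they ranged from -0.071 to 0.013 for Stim1, -0.019 to 0.058 for Orai3 and -0.0097 to 0.051 for Tpcn1.

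Same-numbered libraries did not deviate together at every pair of times (correlations -0.07 to 0.13), and differently numbered libraries had correlations of -0.13 to 0.12. For replicate 1 the correlation was positive at every pair of times (0.091, 0.049 and 0.13), and for replicates 2 and 3 both signs occurred. The replicate numbers were taken as names, which these values do not settle. With the replicate block, 2 of the 10 genes passed at 12 h, Itpr1 and Atp2a2, since Orai2 had an edgeR adjusted p of 0.0556, and 0 at 24 h. Of the 10 genes, Orai1 and Orai2 had the fewest counts, and their 95% intervals at 24 h span more than 0.5 on the log2 scale. How much of that comes from counting and how much from the spread between wells was not tested.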
